A study of Mus musculus with 6 samples.

Results

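The complement components and receptors described here are 8 genes, C1qa, C1qb, C1qc, C1s1, C3, C4b, C3ar1 and C5ar1, out of 32285 in the count tables. They were listed by symbol, with earlier results of these data known, and all 8 were found. Their UMIs (unique molecular identifiers, 1 per captured transcript) were followed in single cells of the mouse heart, mostly other than cardiomyocytes. A cardiomyocyte-like class held 14 to 120 cells per library. The settings were infarction and the absence of Trpm4, a calcium-activated cation channel. The 6 libraries, 1 per group, were WT (strain C57BL/6JRj) and KO (strain B6.Cg-Trpm4tm1.2-PG) sampled 24 h after a sham operation, or 24 h and 72 h after infarction by tying off the LAD, the left anterior descending branch of the coronary arteries. Each library pooled live ventricular cells of 4 male mice aged 8 to 12 weeks. No sham library at 72 h was used, so 72 h is set against ligation at 24 h, and against sham at 24 h, from which it differs in time as well. The whole animal carried the KO allele, so no value separates an effect within a cell type from one that reached it through another.

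Complement is a set of plasma and tissue proteins that mark damaged cells and microbes for removal. C1q, built from the chains encoded by C1qa, C1qb and C1qc, recognises targets, and the attached proteases C1r and C1s cleave C4 and C2 so that C3 is split in turn. C3 fragments coat the target, while the small fragments C3a and C5a act on leukocytes through C3ar1 and C5ar1. In many tissues macrophages are the known source of C1q and stromal cells of C3, C4 and the C1 proteases.

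All 8 genes lie on the minus strand of GRCm38. The genes of the C1q chains stand side by side, C1qb at chr4:136880129-136886187, C1qc at chr4:136889804-136893065 and C1qa at chr4:136895917-136898803. C3 (chr17:57203970-57228136) and C4b (chr17:34728380-34743882) share a chromosome, as do C1s1 (chr6:124530345-124542359) and C3ar1 (chr6:122847138-122856161), and C5ar1 lies at chr7:16246743-16259540. The 250 bases before the RefSeq start (GRCm38.p6, minus strand, 5′ to 3′) are shown for 1 gene read mainly in macrophages, C1qb (chr4:136886201-136886450), and for 2 read mainly in stromal cells, C3 (chr17:57228137-57228386) and the upstream of the 2 C1s1 entries (chr6:124542360-124542609). Capitals mark GAGGAA in C1qb, a core recognised by ETS factors such as PU.1, and TTGCNNAA in C3 and C1s1, a C/EBP-type core, which is read on the opposite strand in C1s1.
C1qb: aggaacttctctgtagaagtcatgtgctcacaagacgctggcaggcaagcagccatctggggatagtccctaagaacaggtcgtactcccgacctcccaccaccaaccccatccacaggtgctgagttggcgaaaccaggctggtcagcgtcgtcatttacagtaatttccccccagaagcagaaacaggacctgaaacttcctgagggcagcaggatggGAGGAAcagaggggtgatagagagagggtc
C3: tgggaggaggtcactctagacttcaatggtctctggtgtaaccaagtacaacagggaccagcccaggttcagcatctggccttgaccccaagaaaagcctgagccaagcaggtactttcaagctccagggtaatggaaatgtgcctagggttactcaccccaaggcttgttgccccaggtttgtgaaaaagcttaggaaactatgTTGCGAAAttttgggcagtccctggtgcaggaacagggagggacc
C1s1: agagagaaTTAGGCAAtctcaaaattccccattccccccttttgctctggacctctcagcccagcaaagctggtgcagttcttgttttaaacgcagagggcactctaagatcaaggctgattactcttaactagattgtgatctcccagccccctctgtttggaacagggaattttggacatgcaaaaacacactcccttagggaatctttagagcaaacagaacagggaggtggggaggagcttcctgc
The GAGGAA of C1qb began 30 bases before the start, and the TTGCNNAA match of C3 began 45 bases before it. In the C1s1 entry shown the match began 242 bases before the start, and the other C1s1 entry held no such match. C1qc also held GAGGAA, on the opposite strand 193 bases before its start, and C3ar1 held TGACTCA, an AP-1 site, 22 bases before. C5ar1 held none of these motifs. Windows were matched for 6 of the 8 genes. Among 32851 windows of this length before RefSeq starts, searched on both strands, 23.3% held GAGGAA, 9.56% TTGCNNAA and 4.46% TGACTCA. The motifs were chosen after the sequences had been seen, and a match is a description of letters, not evidence of binding.

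Of 34940 deposited cells 32085 were kept, and they formed 29 clusters in a clustering that did not use the 8 genes, any of the 50 complement genes listed, or Trpm4. The library of KO ligation 72 h stood apart, with a median of 1351 UMIs per kept cell against 3076 to 8011 in the other 5 libraries. It supplied 1526 of 1654 cells of cluster 7 and 389 of 417 cells of cluster 22, which held markers of more than 1 class and stayed unnamed, as did cluster 28 (94 cells, led by Saa3, Serpinb2 and Prg4). Trpm4 itself was read at 8.48, 5.48 and 4.23 CPM (UMIs per 1000000 UMIs) over all cells in WT (sham, ligation 24 h, ligation 72 h) and at 5.82, 3.39 and 2.56 in KO. The labels do not say which exons the allele lacks, and 3′ tags outside the deleted part do not check the genotype. Pairs of libraries shared between 3 and 14 cell barcodes, at most 0.206% of the smaller library.

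Levels below are in CPM of the named class or cluster in 1 library, and a log2 ratio compares 2 such levels with its 95% interval. The intervals cover counting error only. Cells are not replicates, and 1 library per group leaves the spread between mice, operations and preparations unmeasured, so no test was made and no ratio has a replicate check. A gene counts as at least 2-fold different where the pair of libraries held 50 UMIs of it, and the share of all such genes past 2-fold is given as the background. Class names follow marker genes and mean "-like" throughout. A level of a class does not tell apart fewer producing cells and less RNA per producing cell, and where clusters can answer this they are given.

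The 8 genes divided by cell class. The C1q chains and C3ar1 were read mainly in monocyte/macrophage cells, C5ar1 in neutrophils and monocyte/macrophage cells, C4b in fibroblasts and, at ligation 72 h, more in mesothelial cells, C1s1 in smooth muscle cells, pericytes, fibroblasts and mesothelial cells, and C3 in mesothelial cells, fibroblasts and neutrophils. In 5 libraries monocyte/macrophage cells held 95.8% to 99.0% of all C1qa UMIs. In KO ligation 72 h they held 75.6%, and the unnamed clusters held 16.6%.

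**Figure D1:**
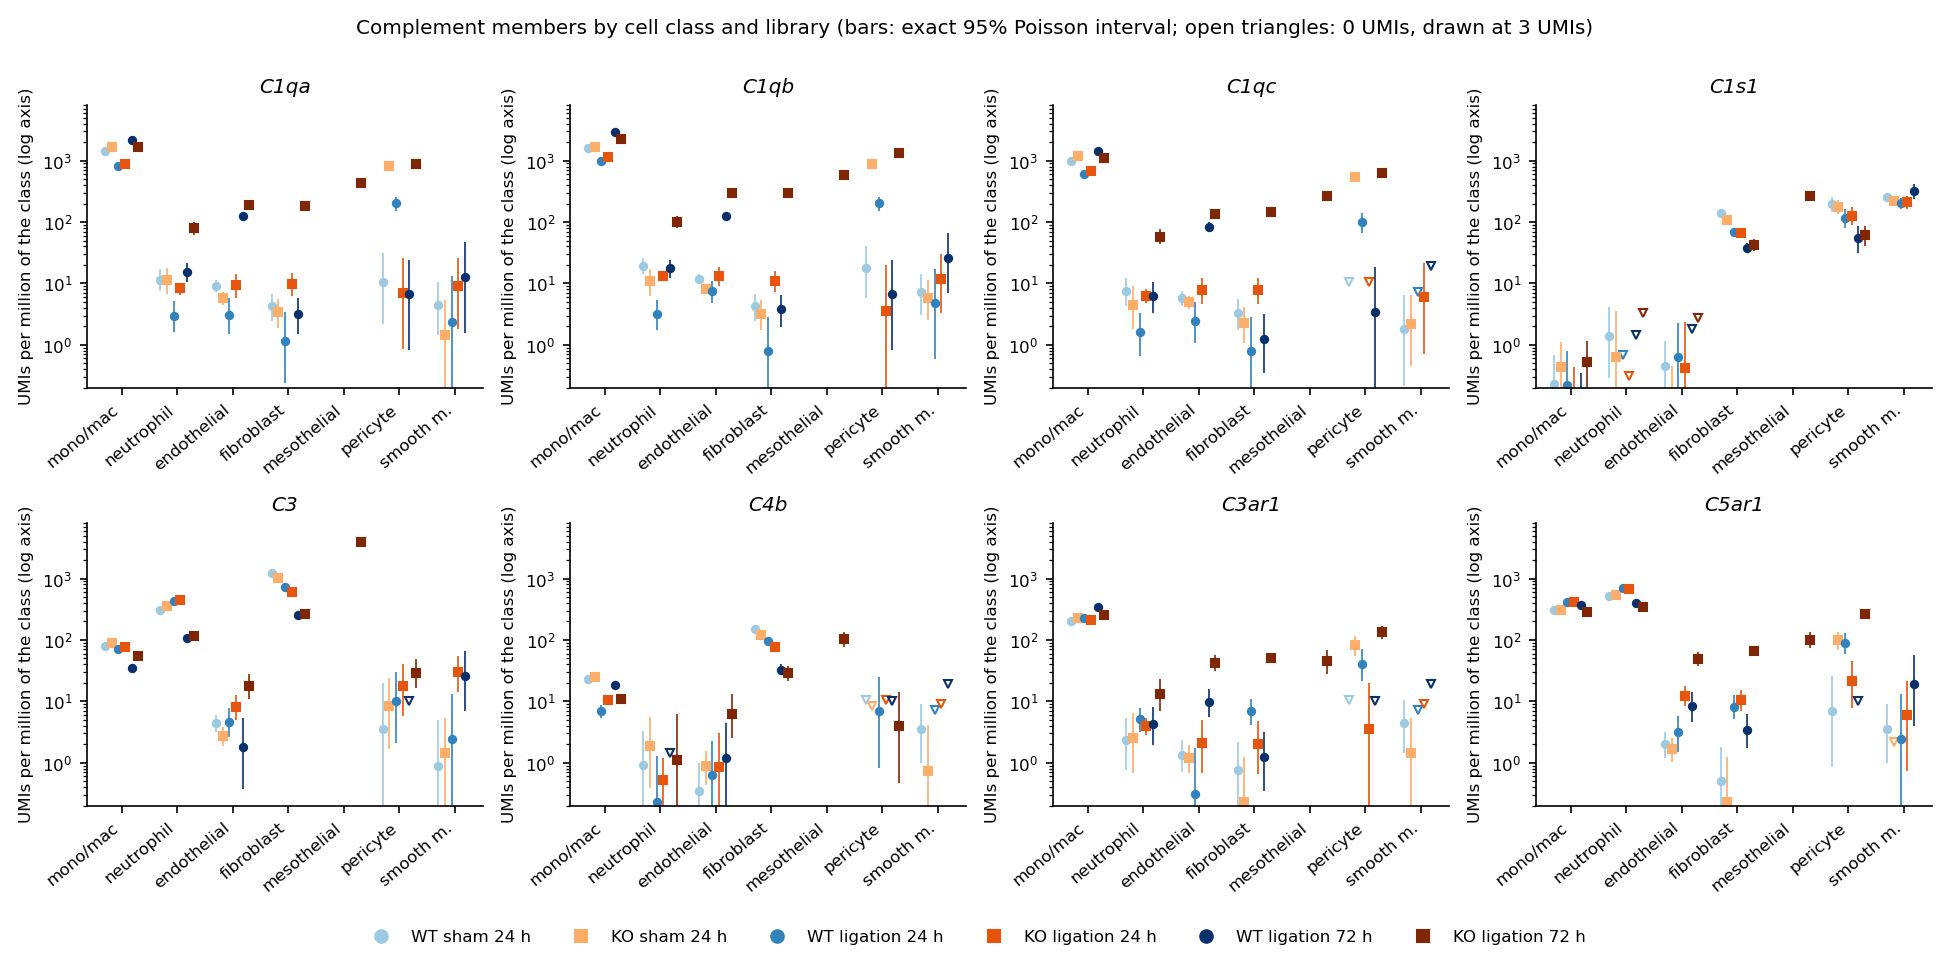
CPM (log axis) of each of the 8 genes in the cell classes of each library, with 95% Poisson intervals and open triangles for 0 UMIs, drawn at 3 UMIs. C1q chains and C3ar1 are high in monocyte/macrophage cells, C5ar1 in both leukocyte classes, and C3, C4b and C1s1 in stromal classes.

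C1q was lower in monocyte/macrophage cells of infarcted hearts at 24 h than in sham hearts, and higher again at 72 h. C1qa stood at 1419 CPM in WT sham and 1669.7 in KO sham, then at 811 (WT) and 877 (KO) 24 h after ligation, and 2170.2 (WT) and 1667 (KO) after 72 h. C1qb followed with 1602 and 1679 in the sham libraries, 973 and 1130.2 at 24 h, and 2939 and 2236 at 72 h, WT first. C1qc was at 997 and 1177, then 608 and 669.9, then 1449 and 1112. Both 24 h ligation libraries were the lowest for each chain, and WT ligation 72 h was the highest.

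Against sham, C1qa at ligation 24 h had a log2 ratio of -0.81 (-0.85 to -0.77) in WT and -0.93 (-0.96 to -0.90) in KO. Its ratio from 24 h to 72 h was 1.42 (1.39 to 1.45) in WT and 0.93 (0.90 to 0.96) in KO. C1qb gave -0.72 and -0.57 at 24 h, then 1.60 and 0.98, and C1qc gave -0.71 and -0.81, then 1.25 and 0.73. At 72 h against sham, C1qa was higher in WT (0.61, 0.59 to 0.64), while in KO its interval included 0 (-0.03 to 0.03). C1qb was higher in both, by 0.88 in WT and 0.41 in KO, and C1qc stood at 0.54 in WT and -0.08 in KO.

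Of the 8 genes, 7 reached 50 UMIs in monocyte/macrophage cells. At 24 h against sham the only one past 2-fold was C4b, which was lower in WT (background 4.22% of genes lower) and in KO (6.76% lower). In WT, C1qa, C1qb, C1qc and C4b were at least 2-fold higher from 24 h to 72 h (4 of 7, background 11.3%) and C3 was lower (1 of 7, background 6.69%). The median log2 ratio of the 7 genes there was 1.25, beside 0.05 for all genes measured. In KO none of the 7 passed 2-fold from 24 h to 72 h (background 11.5% in either direction), with a median of 0.25 beside 0.11. By the ratios given above, C1qa and C1qb of KO lay close below 2-fold, so that count depends on the cutoff. At 72 h against sham, C3 was lower in WT (1 of 7, 4.97% lower) and C4b in KO (1 of 7, 4.81% lower). These pairs share the sham or the 24 h library, so their values stand side by side and are not independent.

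None of the 7 genes differed 2-fold between KO and WT (backgrounds in either direction 2.53% at sham, 1.81% at ligation 24 h and 3.03% at ligation 72 h). C1qa was higher in KO at sham (0.24, 0.20 to 0.27) and at ligation 24 h (0.11, 0.07 to 0.15), and lower in KO at ligation 72 h (-0.38, -0.40 to -0.36). C1qb gave 0.07, 0.22 and -0.39, and C1qc 0.24, 0.14 and -0.38. Restricting the 72 h comparison to cells with at least 2000 UMIs left C1qa at -0.37. The sham value of C1qb changed sign, to -0.04, when clustering was coarser.

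The monocyte/macrophage class held clusters with very different C1q, and their shares of the class moved between libraries. Cluster 16 carried all 7 resident macrophage markers, among them Lyve1, Folr2 and Cd163, and had the highest C1qa in every library, 6696 CPM in WT sham, 6650.2 in KO sham, 5012 and 6157 at 24 h, and 6256 and 6847 at 72 h, WT first. Cluster 8, led by Gpnmb and Trem2, followed with 1459, 1649.9, 3945, 2221, 2765 and 2644 in the same order. Both stood above cluster 4, led by Ccl24 and Arg1, whose C1qa was between 450.2 and 499 in the first 4 libraries and 1638 and 892 at 72 h.

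The lowest levels were in the MHC class II cluster 10 and the Ly6c2 monocyte cluster 5. Cluster 10 was between 225 and 835 CPM of C1qa and cluster 5 between 41.6 and 229. In WT ligation 72 h an interferon cluster (15, led by Cxcl10 and Ifit genes) reached 2695. A cycling cluster (20, led by Birc5, Ngp and Camp, with Mki67) reached 2817, beside 2765 in cluster 8. In KO ligation 72 h clusters 15 and 20 were at 1525 and 2143. Whether cluster 20 holds cells other than macrophages was not tested.

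Resident cluster 16 made up 19.1% of monocyte/macrophage cells in WT sham and 24.6% in KO sham, 7.16% and 6.00% at 24 h, and 1.87% and 2.17% at 72 h. Cluster 4 was the largest part at sham and at 24 h, between 38.3% and 49.2% of cells, and cluster 8 the largest at 72 h, 30.5% in WT and 30.4% in KO. The source of C1qa moved accordingly. Cluster 16 supplied 70.5% and 75.6% of the class's C1qa UMIs at sham, 38.0% and 41.6% at 24 h, and 3.76% and 7.51% at 72 h, when cluster 8 supplied 47.2% in WT and 58.0% in KO.

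Within cluster 16, C1qa at 24 h against sham was -0.42 (-0.48 to -0.36) in WT and -0.11 (-0.15 to -0.07) in KO, less than the class as a whole in both genotypes. In cluster 4 the same ratios were 0.14 and -0.02, and in cluster 8 they were 1.44 (1.33 to 1.54, from 24 cells at 24 h) and 0.43. Cluster 4 had ratios from 24 h to 72 h of 1.73 (1.64 to 1.81) in WT and 0.86 (0.73 to 0.98) in KO. Weighting each library's cluster levels by the makeup of WT sham gave C1qa at 1435 CPM in KO sham, 1509 and 1524 at ligation 24 h, and 2038 and 1872 at 72 h, beside 1419 in WT sham. At that fixed makeup neither 24 h ligation library was below WT sham, and both 72 h libraries were above it. This weighting was chosen after the cluster levels had been seen, covers 98.3% of the makeup in WT ligation 24 h, and rests for the rarest cluster on 2 to 46 cells.

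At 72 h the ratios between genotypes differed by cluster, and so did depth. KO cells had medians of 1826, 1953 and 2016.5 UMIs in clusters 4, 15 and 20. WT medians there were 6495, 12589 and 23483. Clusters 8 and 16 had 4805.5 and 3135.5 in KO, against 15603 and 8458 in WT. The part of depth in the ratios that follow was not tested. C1qa was at -0.06 (-0.10 to -0.03) for KO against WT in cluster 8, at 0.13 (0.04 to 0.22) in cluster 16, at -0.88 (-1.01 to -0.74) in cluster 4, at -0.82 (-0.91 to -0.74) in cluster 15 and at -0.39 (-0.46 to -0.33) in cluster 20. In cluster 10 it was higher in KO at sham (0.52), at 24 h (0.90) and at 72 h (0.75, 0.67 to 0.84). In monocyte cluster 5 of the sham hearts C1qa was lower in KO (-2.18), on 55 UMIs against 414 in WT.

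**Figure D2:**
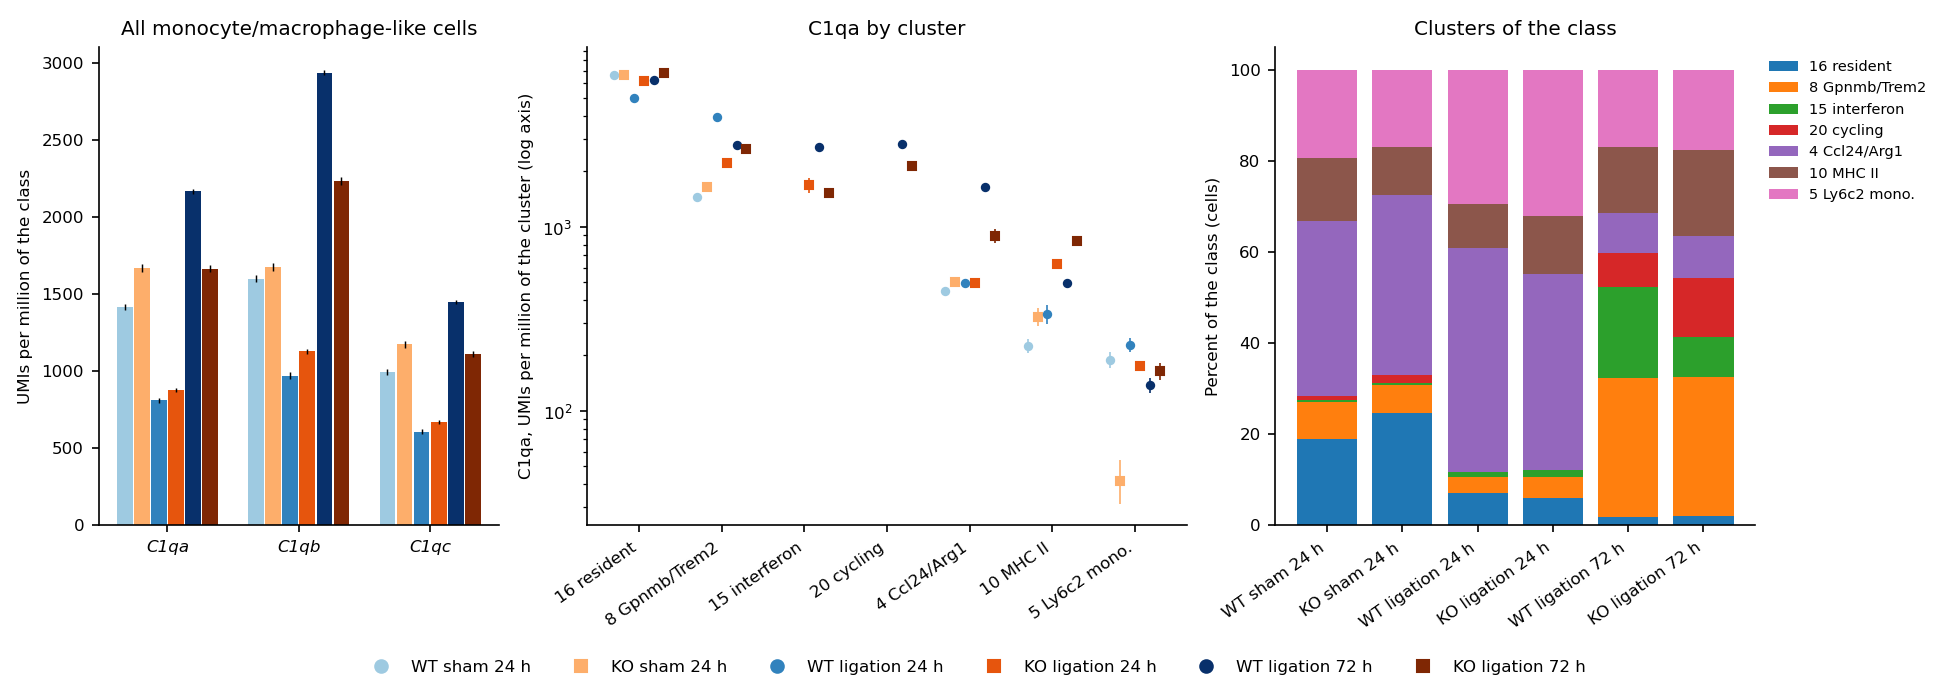
Monocyte/macrophage levels of the C1q chains by library, C1qa by cluster on a log axis, and the share of each cluster among the class's cells, with 95% Poisson intervals on levels. C1qa is highest in cluster 16 in every library, and that cluster shrinks from 19.1% of cells in WT sham to 1.87% in WT ligation 72 h.

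The chains are needed together in the C1q protein, and their UMIs were found together in cells. In monocyte/macrophage cells with a C1qa UMI, 90.2% to 95% also had C1qb and 84.0% to 94.2% had C1qc, while 12.4% to 33.8% of cells without C1qa had C1qb. Of the UMIs of the 3 chains in this class, C1qb made up 39.9% and 37.1% in WT and KO sham, 40.7% and 42.2% at 24 h, and 44.8% and 44.6% at 72 h. In monocyte cluster 5, C1qb made up 49.6% to 59.9% of them, against 34.1% to 39.1% in resident cluster 16.

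Because cells differ in depth, the share of cells with C1qa was also taken after thinning each cell to 1000 UMIs. It was then 33.6% and 36.9% of monocyte/macrophage cells at sham, 22.4% and 22.5% at ligation 24 h, and 43.8% and 45.2% at 72 h, WT first. Without thinning the shares were 46.5%, 45.9%, 32.3%, 32.5%, 56.2% and 57.2%. Thinned endothelial cells, which should lack C1q, gave 0.307% to 2.52% in 5 libraries and 15.7% in KO ligation 72 h. Thinning left out 232 monocyte/macrophage cells and 238 endothelial cells of that library, and at most 83 cells in any of the other 10 of these class samples.

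C1q was also read in classes where macrophage markers were read too, or where single cells held most of its UMIs. In KO ligation 72 h, C1qa was at 189 CPM in endothelial cells, 183 in fibroblasts and 870.1 in pericytes, with a C1qa UMI in 116 of 581, 179 of 874 and 158 of 369 cells. Relative to monocyte/macrophage cells of the same library, fibroblast C1qa stood at 11%, and 7 macrophage markers (not named here) stood at 12.9% to 24.3%. The endothelial share of C1qa was 11.4%, beside 8.26% to 24.3% for these markers, and the pericyte share 52.2%, beside 44.1% to 91.7%. The summed level of 12 monocyte/macrophage markers ranged over the libraries from 943 to 4735 CPM in fibroblasts and from 9045 to 20590.0 in monocyte/macrophage cells. The part of macrophage RNA in these values was not tested further.

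In KO ligation 72 h other classes carried it too. C1qa was found in 85 of 167 lymphatic endothelial cells (676 CPM), 57 of 168 T/NK cells (645 CPM) and 24 of 120 cardiomyocytes (541 CPM). In some other libraries a few cells held most of a class's C1qa. In WT ligation 72 h a single endothelial cell held 186 of 207 UMIs, and the level was 126 CPM with it and 13.1 without. In KO sham pericytes, 7 cells held all 300 UMIs (825 CPM). C1qa there stood at 49.4% of the macrophage level, beside 27.3% to 38.0% for the markers. In WT ligation 24 h pericytes 1 cell held 58 of 59.

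C3, the central component, was lower in fibroblasts of infarcted hearts in both genotypes, and lower still at 72 h. Fibroblast C3 was at 1241 CPM in WT sham and 1032 in KO sham, 725 and 609 after 24 h of ligation, and 252 and 266 after 72 h. The log2 ratio at 24 h against sham was -0.78 (-0.85 to -0.70) in WT and -0.76 (-0.85 to -0.68) in KO. Between 24 h and 72 h it was -1.53 (-1.65 to -1.41) and -1.19 (-1.34 to -1.05). C3 was thus lower at each step within each genotype, and background shares of all genes are given below.

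C4b, which encodes C4, and C1s1, which encodes the protease that cleaves it, went the same way in fibroblasts. C4b was at 151 and 122 CPM at sham, 96.5 and 77.3 at 24 h, and 32.9 and 28.5 at 72 h, WT first. C1s1 was at 141 and 108, then 67.7 and 66.3, then 38.3 and 42.5. At 72 h against sham, C4b had ratios of -2.19 in WT and -2.10 in KO, and C1s1 of -1.88 and -1.35. The counting could split C4b from its near-identical copy C4a (20 UMIs in all) and C1s1 from C1s2 (0 UMIs), so these levels are uncertain to that extent.

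In fibroblasts of WT, C3, C4b and C1s1 were the 3 genes with 50 UMIs. At 24 h C1s1 was at least 2-fold lower in WT (1 of 3, background 4.65% lower) and none was in KO (background 14% in either direction). Between 24 h and 72 h, C3 and C4b were lower in WT (2 of 3, background 15.6%) and in KO (2 of 8, background 6.66%). In KO the 3 C1q chains and both receptors were higher (5 of 8, background 6.63%), with the macrophage markers given above. At 72 h against sham all 3 were lower in WT (background 20.5%) and in KO (background 17%), where the C1q chains and receptors were again higher (5 of 8, background 6.11%). The median gene had a ratio of -0.27 in both.

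Between genotypes the ratios of C3 in fibroblasts were small. C3 was lower in KO at sham (-0.27, -0.32 to -0.21) and at 24 h (-0.25, -0.35 to -0.15), and at 72 h the interval included 0 (0.08, -0.08 to 0.24). No gene of the 3 passed 2-fold between genotypes at sham (background 1.58% in either direction) or at 24 h (3.25%). At 72 h only the 3 C1q chains, C3ar1 and C5ar1 did, higher in KO (5 of 8, background 4.56% higher). The 72 h value of C3 depended on depth and on the weight of each cell. It was 0.49 with cells of at least 2000 UMIs, 0.61 with coarser clusters and -1.86 as a mean over cells.

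Fibroblast C3 separated by cluster more than by time. Cluster 13, led by Clec3b and Pi16, had C3 at 1741 and 1559 CPM at sham, 1425 and 1522 at 24 h, and 2121 and 2322 at 72 h, WT first. Cluster 11, with the activation genes Cthrc1 and Tnc, had between 66.2 and 187 CPM of C3 in the 5 libraries where it held 20 cells or more. Cluster 27 (Wif1 and Dkk3) had 129, 86.9 and 152 in WT sham, KO sham and WT ligation 24 h. Every C3 level of cluster 13 was above every level of clusters 11 and 27.

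Cluster 13 was 81.6% of fibroblasts in WT sham and 69.1% in KO sham, 56.6% and 52.4% at 24 h, and 26.1% and 2.97% at 72 h. Cluster 11 was 67.6% in WT and 96.8% in KO at 72 h, against 5.15% and 6.67% at sham. Cluster 13 nonetheless held 97.8% and 95.6% of fibroblast C3 UMIs at sham, and 76.1% and 76.5% at 72 h. Inside it, C3 at 24 h against sham was -0.29 (-0.37 to -0.21) in WT and -0.03 (-0.12 to 0.05) in KO, and from 24 h to 72 h it was 0.57 (0.44 to 0.71) and 0.61 (0.45 to 0.77). The class and the cluster thus moved in opposite directions between 24 h and 72 h. At 72 h cluster 13 held 37 cells in WT and 26 in KO.

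C4b and C1s1 in cluster 13 were also higher at 72 h than at 24 h. C4b was at 124 and 114 CPM at sham, 91.3 and 181 at 24 h, and 229.5 and 297 at 72 h, with 72 h against 24 h at 1.33 (0.87 to 1.78) in WT and 0.71 (0.23 to 1.17) in KO. C1s1 was at 194 and 161, then 129 and 159.7, then 327 and 382, with ratios of 1.34 (0.96 to 1.72) and 1.26 (0.82 to 1.69). C4b was highest in cluster 27, at 445 CPM in WT sham and 606 in WT ligation 24 h, and at 209 in KO sham (KO against WT -1.09, -1.36 to -0.82). C4b thus peaked in cluster 27 and C3 in cluster 13.

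**Figure D3:**
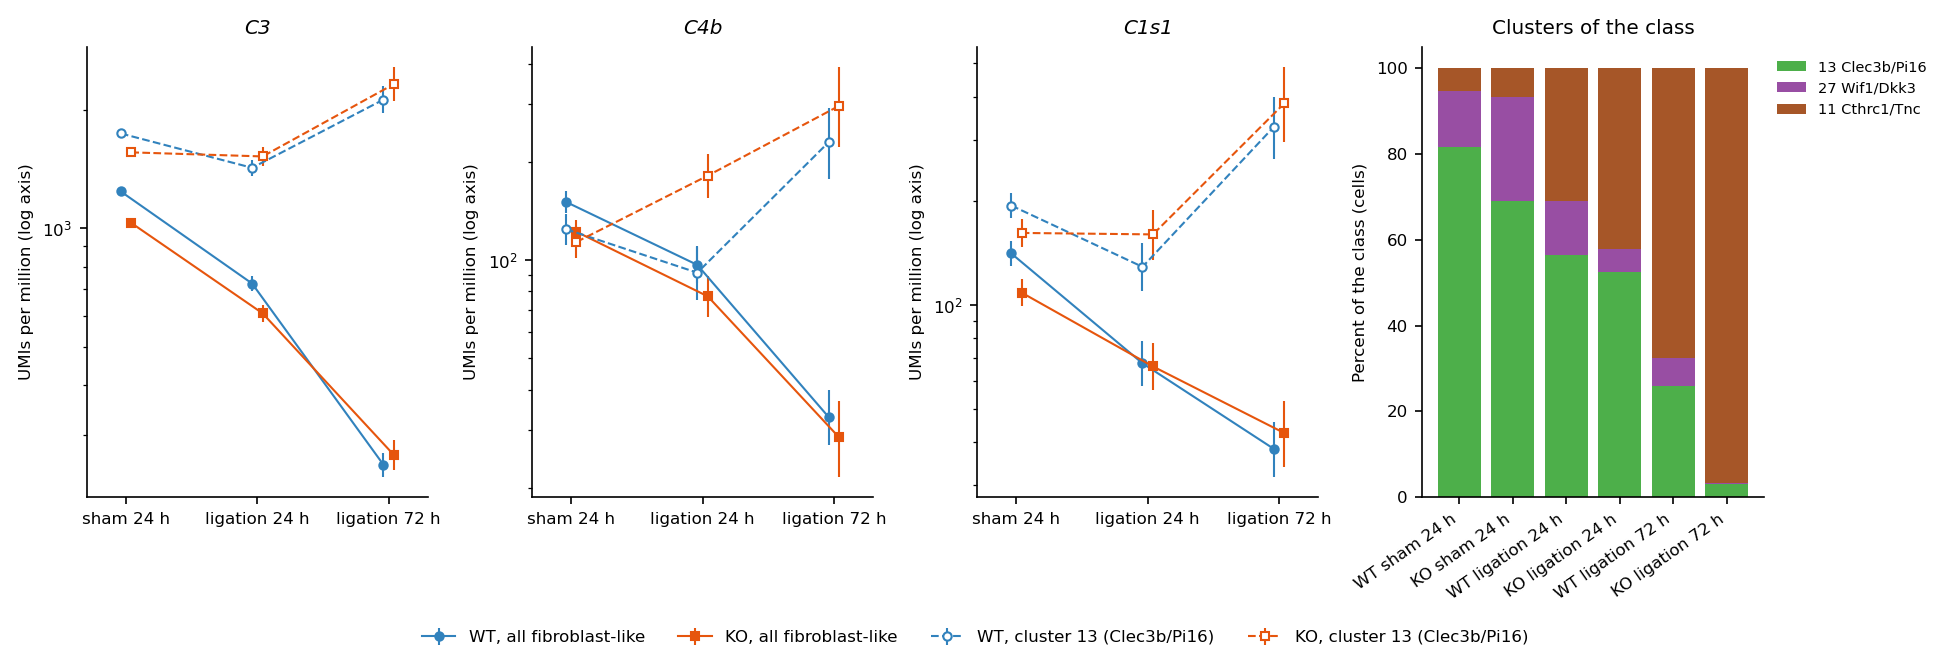
C3, C4b and C1s1 in CPM (log axis) by library, for all fibroblast-like cells (solid) and cluster 13 alone (dashed), with 95% Poisson intervals, beside the share of each cluster among fibroblasts. C3 of all fibroblasts is at 1241 in WT sham and 252 in WT ligation 72 h, while cluster 13 of WT lies between 1425 and 2121.

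Fibroblasts of KO ligation 72 h were shallow, with a median of 1063 UMIs per cell against 8847 to 10836 in the other 5 libraries. Cluster 11 of that library was at 1040.5 and cluster 13 at 7292. Thinned to 1000 UMIs, the share of fibroblasts with C3 was 49.3% and 42.7% at sham, 35.7% and 35.1% at 24 h, and 21.2% and 12.9% at 72 h, with 392 cells of KO ligation 72 h left out. Without thinning it was 77.2%, 69.6%, 66.2%, 66.5%, 39.4% and 13.3%. Endothelial cells thinned in the same way gave between 0 and 1.46%. As a mean over cells rather than a ratio of sums, C3 from 24 h to 72 h was -0.54 in WT and -2.38 in KO, so its size in the class depends on how cells are weighted.

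C3 positive fibroblasts carried C1s1 more often than the others. C1s1 was found in 68.4% and 58.8% of fibroblasts with a C3 UMI at sham, and in 22.6% and 21.9% of those without. The same shares were 55.4% and 14.0% in WT ligation 72 h. C4b was found in 40.0% and 34.2% of fibroblasts with C3 at sham, close to the 42.9% and 40.1% of those without. The shares were 26.0% with C3 and 25.4% without in WT ligation 24 h, and 30.1% and 12.9% in KO. At 72 h they were 41.1% and 9.3% in WT, and 12.1% and 0.528% in KO. These shares are not thinned, and deeper cells show more of every gene.

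Neutrophils also carried C3. Their level was 313 CPM in WT sham and 359.98 in KO sham, 437 and 441 with ligation after 24 h, and 107 and 116 after 72 h. The ratio at 24 h against sham was 0.48 (0.36 to 0.61) in WT and 0.29 (0.17 to 0.42) in KO, opposite in sign to fibroblasts. From 24 h to 72 h it was -2.03 (-2.24 to -1.83) and -1.93 (-2.22 to -1.65). KO and WT differed by 0.20, 0.01 and 0.12 at sham, 24 h and 72 h. None of 3 genes passed 2-fold between genotypes at sham (background 1.65% in either direction), while the C1q chains were higher in KO at 24 h (3 of 6, background 2.22% higher) and at 72 h (3 of 5, background 0.773% higher). Macrophage markers were read in these neutrophils too. In KO ligation 72 h neutrophil C1qa stood at 4.75% of the monocyte/macrophage level, beside a median of 12.4% for 7 macrophage markers, and 1 cell held 26 of its 71 UMIs. In WT ligation 72 h the same values were 0.706% and 6.61%. The part of these markers in the C1q ratios was not tested.

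C3 was at least 2-fold lower from 24 h to 72 h in neutrophils of WT (1 of 3, background 6.75% lower) and KO (1 of 6, background 5.53% lower), while the median gene was higher by 0.54 and 0.51. Higher past 2-fold were C1qb in WT (1 of 3, background 32.2% higher) and the C1q chains and C3ar1 in KO (4 of 6, background 29.1% higher). At 72 h against sham C3 was again lower in WT (1 of 4, 3.51% lower) and KO (1 of 5, 4.76% lower), and in KO the C1q chains were higher (3 of 5, 18% higher). At 24 h against sham C1qb was lower in WT (1 of 3, 8.39% lower) and none of 5 passed in KO (6.93% in either direction). Cluster 3, led by Retnlg and Cd177, and cluster 1, with Tnf and Icam1, held most neutrophils at 24 h, and cluster 12, with Siglecf, held 52.4% and 53.9% at 72 h. C3 was at 466 and 536 CPM in cluster 3 at 24 h and at 83.3 and 66.4 in cluster 12 at 72 h. Within cluster 1 it was lower at 72 h than at 24 h as well, by -1.35 (-1.70 to -1.01) in WT and -0.87 (-1.26 to -0.49) in KO.

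Set beside fibroblasts, neutrophil C3 was 25.2%, 34.9%, 60.3%, 72.4%, 42.4% and 43.6% of the fibroblast level in the 6 libraries, in the order used above. Fibroblast markers in the same neutrophils had a median of 0.02% to 0.58% of theirs. After thinning, 22.9% and 26.8% of neutrophils had C3 at sham, 33.4% and 31.5% at 24 h, and 9.46% and 9.34% at 72 h, and endothelial cells again gave between 0 and 1.46%.

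The weight of each class in the library's C3 shifted with these levels and with cell numbers. Fibroblasts held 67.5% and 63.0% of all C3 UMIs at sham, 35% and 20.1% at 24 h, and 27.4% and 13.6% at 72 h. Neutrophils held 9.22% and 7.82%, then 35.7% and 57.4%, then 7.62% and 2.66%. Mesothelial cells held 25.2% (19 cells) and 46.5% (221 cells) at 72 h, and monocyte/macrophage cells 39.1% and 15.9%. Over all kept cells C3 was 239, 234, 245, 202, 68.1 and 192 CPM. These are shares of the cells that were digested and sorted, not of the heart.

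**Figure D4:**
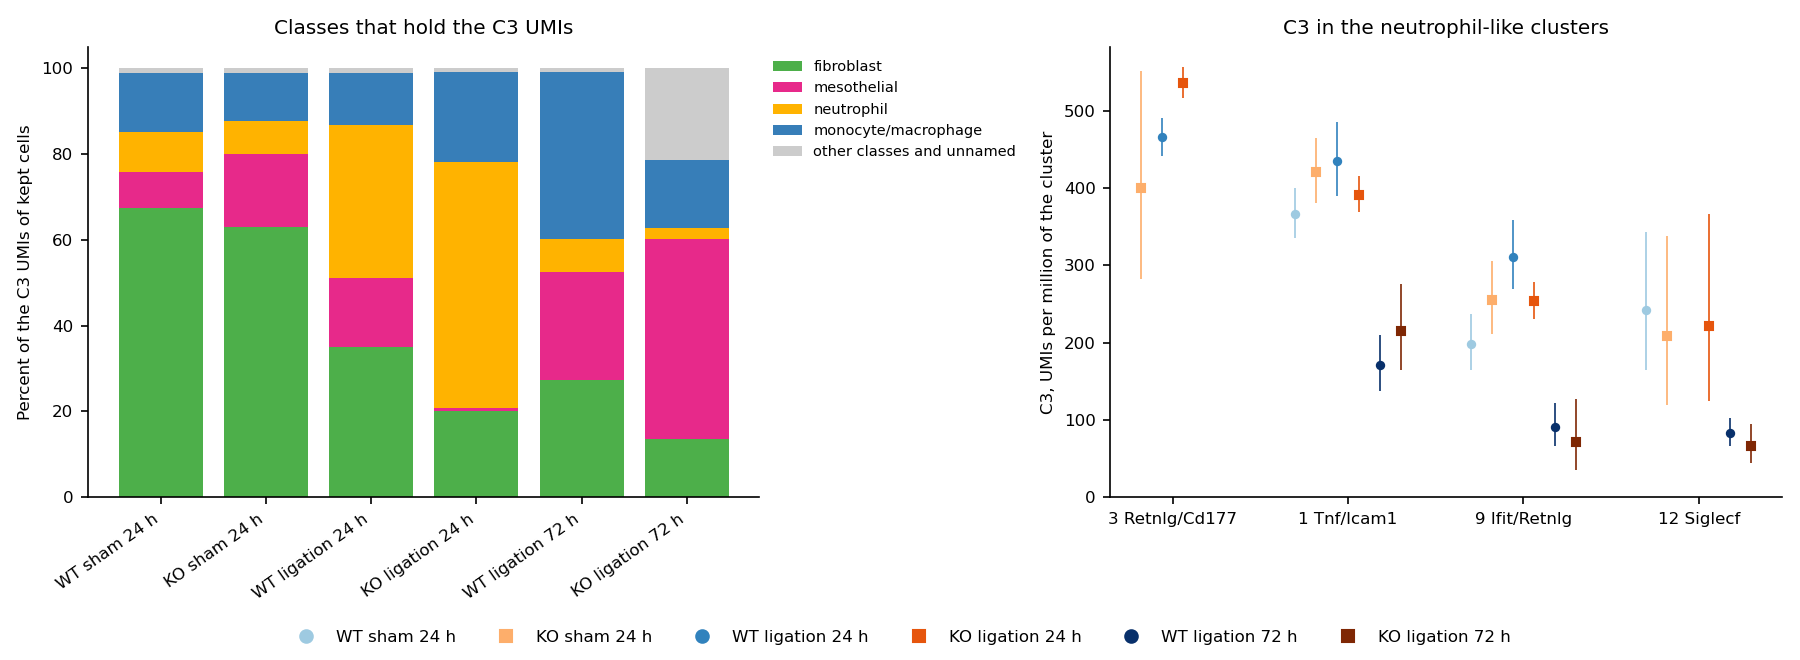
Percent of each library's C3 UMIs by cell class, and C3 in CPM in neutrophil clusters 3, 1, 9 and 12 with 95% Poisson intervals. Neutrophils hold 35.7% (WT) and 57.4% (KO) of C3 at ligation 24 h, and every neutrophil cluster drawn at 24 h and 72 h is lower at 72 h.

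Mesothelial cells, which line the heart's surface, had the highest C3 of any class, though few were sorted. The level was 2901 CPM in WT sham (9 cells), 3509 in KO sham (19 cells), 3806 in WT ligation 24 h (9 cells) and 1120.0 in WT ligation 72 h (19 cells). In KO ligation 72 h, with 221 cells, it was 3899.7 (3722 to 4083), and 94.6% of cells had a C3 UMI. Those 221 cells had a median of 1259 UMIs, against 36906 in WT ligation 72 h, and 86 of them held a C1qa UMI. The part of depth and of macrophage RNA in their C3 level was not tested. KO ligation 24 h had 2 cells and gives no usable level. C1s1 in the same cells of KO ligation 72 h was at 268 CPM and C4b at 103.

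Monocyte/macrophage cells had lower C3, 78.4 and 87.8 CPM at sham, 70.4 and 77.3 at 24 h, and 34.4 and 55.2 at 72 h. The ratio from 24 h to 72 h was -1.03 (-1.17 to -0.89) in WT and -0.48 in KO. Monocyte cluster 5 had the most, 114 to 176 CPM over the 6 libraries. Unnamed cluster 22 of KO ligation 72 h had 629.8.

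C4b in monocyte/macrophage cells was low. Resident cluster 16 held 85.1% and 88.6% of the class's C4b UMIs at sham, but 7.89% and 22.3% at 72 h. The class stood at 23.3 and 25.0 CPM at sham, 6.86 and 10.7 at 24 h, and 18.3 and 10.8 at 72 h. The ratio to sham at 24 h was -1.77 (-2.18 to -1.37) in WT and -1.22 (-1.50 to -0.95) in KO. In cluster 16 C4b was at 133 and 117, then 40.7 and 109.8, then 111 and 131. WT ligation 24 h, with 23 UMIs there, was the one low library.

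At 72 h, C4b also appeared in cluster 4, at 95.7 CPM in WT (142 UMIs) and 22.1 in KO (14 UMIs), against 4.66 to 6.74 in the earlier libraries. The WT ratio from 24 h to 72 h was 3.83 (3.28 to 4.41), and KO against WT at 72 h was -2.12 (-3.02 to -1.32). Cells of cluster 4 at 72 h had a median of 1826 UMIs in KO and 6495 in WT, and the part of depth was not tested.

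C1s1 was highest in smooth muscle cells. Smooth muscle cells had 259 and 221 CPM at sham, 201 and 211 at 24 h, and 315 and 288 at 72 h, where KO held 15 cells. Pericytes had 194 and 176 at sham, 116 and 127 at 24 h, and 53.9 and 60.5 at 72 h, with ratios at 72 h against sham of -1.84 in WT and -1.54 in KO. Pericytes of KO ligation 72 h had a median of 943 UMIs, against 3204 in WT, and 158 of the 369 held a C1qa UMI. The part of depth and of macrophage RNA in that KO value was not tested. In smooth muscle WT the ratio from 24 h to 72 h was 0.65 (0.11 to 1.17), on 84 and 49 UMIs. Against sham, the smooth muscle intervals at 72 h overlapped those of sham in both genotypes. They were 233 to 416 and 230 to 291 in WT, and 191 to 416 and 197 to 247 in KO, 72 h first. Monocyte/macrophage cells held at most 6 C1s1 UMIs in any library, endothelial cells at most 4 and neutrophils at most 3.

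C3ar1, the receptor of C3a, was read in monocyte/macrophage cells. Its level was 203 CPM in WT sham, 230.2 in KO sham, 224 and 213 at ligation 24 h, 345 in WT ligation 72 h and 254 in KO ligation 72 h. Neutrophils had 2.31 to 5.06 in 5 libraries and 13.4 in KO ligation 72 h. C3ar1 at 24 h against sham was higher in WT (0.14, 0.06 to 0.23) and lower in KO (-0.11, -0.18 to -0.03), both small, and relative to the median gene the KO value became 0.15. From 24 h to 72 h it was 0.62 (0.55 to 0.69) in WT and 0.25 (0.18 to 0.32) in KO.

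KO against WT at 72 h was -0.44 (-0.50 to -0.38) for C3ar1 in the class. By cluster that comparison was -0.07 in cluster 8, 0.00 in cluster 4, 0.14 in cluster 16 and -0.40 in the interferon cluster 15. Cells of cluster 15 at 72 h had a median of 1953 UMIs in KO and 12589 in WT, and the part of depth was not tested. Cluster 15 had the highest C3ar1, 376, 523 and 396 CPM in KO ligation 24 h, WT ligation 72 h and KO ligation 72 h. Clusters 16 and 8 were between 254 and 429.8 and overlapped, cluster 4 was between 204 and 334, and monocyte cluster 5 between 106 and 157. Cluster 15 made up 20% of the class in WT and 8.72% in KO at 72 h.

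C5ar1, the receptor of C5a that draws neutrophils to injury, was read in both phagocyte classes. Neutrophils had 527 and 529 CPM at sham, 708 and 668 at ligation 24 h, and 399.8 and 348 at 72 h, WT first. The ratio at 24 h against sham was 0.42 (0.33 to 0.52) in WT and 0.34 (0.23 to 0.44) in KO. From 24 h to 72 h it was -0.82 (-0.94 to -0.71) and -0.94 (-1.11 to -0.78), while the median gene of neutrophils was higher. Both genotypes were thus highest at 24 h and lowest at 72 h.

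In monocyte/macrophage cells C5ar1 was at 308 and 310.04 CPM at sham, 409.6 and 416 at 24 h, and 369 and 288 at 72 h. At 24 h the WT ratio was 0.41 (0.35 to 0.47) and the KO ratio 0.42 (0.36 to 0.48). Resident cluster 16 moved most, from 333 and 319 at sham to 544 and 580.3 at 24 h, a ratio of 0.71 (0.51 to 0.91) in WT and 0.86 (0.70 to 1.03) in KO. It was back at 329.8 and 346 at 72 h. In the MHC class II cluster 10, C5ar1 stayed between 77.8 and 169 CPM.

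KO and WT differed little in C5ar1 at sham and 24 h. In neutrophils the ratios were 0.01 and -0.08, and in monocyte/macrophage cells 0.01 and 0.02. At 72 h KO was lower in neutrophils (-0.20, -0.39 to -0.01) and in monocyte/macrophage cells (-0.36, -0.42 to -0.31). The share of neutrophils with C5ar1 after thinning was 29.8% in WT and 25.8% in KO at 72 h, beside 49.5% and 47.4% at 24 h.

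**Figure D5:**
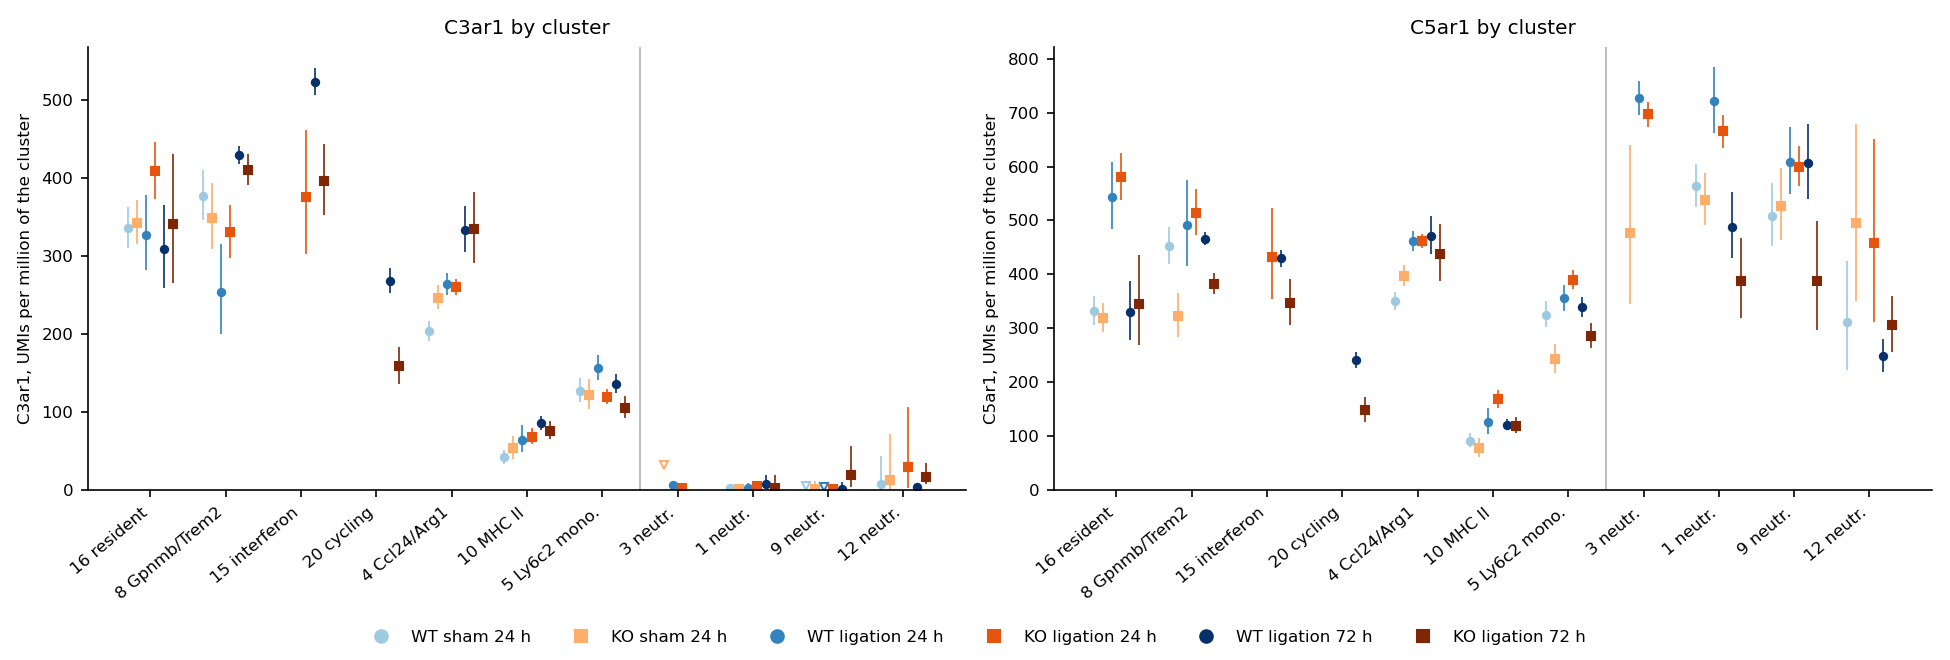
C3ar1 and C5ar1 in CPM by monocyte/macrophage and neutrophil cluster and library, for clusters with 20 cells or more, with 95% Poisson intervals. C5ar1 of resident cluster 16 is highest in the ligation 24 h libraries (544 in WT, 580.3 in KO), and C3ar1 is low in every neutrophil cluster.

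The receptors went with each other and with C1q in cells. Among monocyte/macrophage cells with C3ar1, 74.9% to 95.5% also had C5ar1, against 35.2% to 62.9% of those without. C3ar1 was found in 81.0% and 82.4% of cells with C1qa at sham, 85.2% and 84.6% at 24 h, and 90.8% and 58.2% at 72 h. Among cells without C1qa it was found in 43.4%, 53.1%, 65.4%, 62.9%, 53.9% and 32.4%. These shares are not thinned, and KO ligation 72 h is the shallowest library.

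Other complement genes of the list were counted in the same comparisons. Of its 50 genes, 14 reached 50 UMIs in fibroblasts of WT ligation 72 h and WT sham together. At 72 h 11 were at least 2-fold lower (background 20.5% lower), with a median of -1.88 beside -0.27 for all genes. Colec11 and Vtn were higher, but no background share is given for that direction, so this is not read as a result. The class with the highest level of each was pericytes. In KO 21 were measured, 11 lower (background 17%) and 8 higher (background 6.11%), the 8 being C1qa, C1qb, C1qc, Cfp, C3ar1, C5ar1, Itgam and Itgb2. Leukocytes express these 8, and in KO ligation 72 h fibroblasts the 7 macrophage markers stood at 12.9% to 24.3% of their monocyte/macrophage level. Serping1, the C1 inhibitor, was at 1508 and 1507 CPM in sham fibroblasts and 384 and 389 at 72 h. C1ra, the partner of C1s1, was at 154 and 128 at sham and 45.8 and 52.6 at 72 h.

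In monocyte/macrophage cells 23 of the 50 genes were measured from 24 h to 72 h in WT, 6 at least 2-fold higher (background 11.3%) and 5 lower (background 6.69%), with a median of 0.25 beside 0.05. In KO 25 were measured, 5 higher and 3 lower (background 11.5% in either direction). Cfb, the protease of the alternative pathway, was at 5.34 CPM in WT at 24 h and 54.1 at 72 h (3.34, 2.93 to 3.78), and at 22.1 in KO at 72 h (KO against WT -1.29, -1.49 to -1.10). At 24 h against sham 20 were measured in WT, 2 lower (C4b and Fcna, background 4.22%) and none higher. In KO 22 were measured, 6 lower (background 6.76%) and 1 higher. No background share is given for higher, so that count is not read as a result.

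Across 50 points of class and library in 12 classes, the genes most like each of the 8 were listed by Pearson correlation of log2(CPM + 10) over 11383 genes. The points share libraries and clusters, and the values describe likeness of pattern only. C1qa was nearest to Clec4a1, Fcgr1 and Slc7a8 (0.93 each), C1qb to Aif1 (0.94) and C1qc to Ms4a6c (0.96). C3ar1 was nearest to Fcgr1 (0.96) and C5ar1 to Fcgr3 (0.97). C1s1 was nearest to Rarres2 (0.98), C4b to Ifi205 (0.91) and C3 to Igfbp6 (0.87). Between the 8 genes, the C1q chains were at 0.97 to 0.98, C3 with C4b at 0.73, C3ar1 with C5ar1 at 0.62 and C1qa with C1s1 at -0.14.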

How the data were processed

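Single-cell libraries made with 10x 3′ chemistry from live-sorted ventricular cells were analysed, 1 library of 4 pooled mice per group. The deposited values are whole counts of UMIs for each gene in each cell. Per the file headers they come from Cell Ranger 6.0.0, and the build is mm10 per the submitters' processing notes. Any later filter is not given in the sources used here. The 8 genes and all gene lists were chosen with earlier results of these data known. Named genes were the 8 members, other listed complement genes with 50 UMIs over a pair and 50 CPM in the higher library that were 2-fold apart and at 0.25 or more of their highest class, or named for that class, and the genes most like each member by correlation. Others were added after their values had been seen.

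Cells with fewer than 200 genes or over 20% mitochondrial UMIs were left out. Scrublet, run in scanpy 1.11.5, scored doublets, and the highest scores were removed at 0.8% per 1000 deposited cells, because its own threshold marked 0 to 50 cells per library. Total UMIs per library were 20995280 to 45649061, and 3365 to 6824 cells were kept. Counts were scaled to 10000 per cell, and 2000 variable genes without the complement genes gave 30 components, 20 neighbours and Leiden clusters (leidenalg 0.10.2, resolution 1), with no correction between libraries. Clusters were named from marker lists.

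Counts were summed per library and class or cluster and expressed per 1000000 of that sum (CPM), with exact Poisson intervals. Ratios have exact conditional intervals and shares exact binomial intervals (scipy 1.17.1). The ratio calculation was tested on simulated data. Genes needed 50 counts over a pair of libraries to be called at 2-fold, and a count of 0 was set to 3. Gene positions are those of GRCm38. Promoter windows (6 of 8 genes matched) are RefSeq's, from a table of GRCm38.p6. Alternatives were Leiden resolutions of 0.5 and 2, no doublet removal, at most 10% mitochondrial UMIs, cells of at least 2000 UMIs, other scalings, and other minima on UMIs. Of the listed genes, 1 is not reported here.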

Additional observations from a re-analysis of the deposited data

Results flagged for a closer look

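At 24 h against sham, 4 results had opposite signs in WT and KO. The difference between the genotypes was not tested, since each group has 1 library. C3ar1 in monocyte/macrophage cells had a log2 ratio of 0.145 in WT and -0.11 in KO. C1qb in endothelial cells was at -0.66 in WT and 0.70 in KO, in cells that should lack it. C1qa in pericytes was at 4.25 in WT and -6.87 in KO, and C1qb there at 3.52 and -7.96. The pericyte values rest on few cells: of the C1qa UMIs, 1 cell held 58 of 59 in WT ligation 24 h, and 7 cells held all 300 in KO sham.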

How the results depend on the processing

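No paired analysis was possible because each group has 1 library. Over 70 log2 ratios and 595 alternatives, 418 values stayed within the counting interval, 173 moved beyond it and 4, with a reported interval that excluded 0, changed sign. Those 4 were C1s1 in fibroblasts of WT from 24 h to 72 h (0.32 as a mean over cells), C3ar1 in monocyte/macrophage cells of KO at 24 h against sham (0.15 relative to the median gene), and C1qb in sham monocyte/macrophage cells, KO against WT (-0.042 at Leiden resolution 0.5 and -0.023 without the MHC class II cluster, an alternative chosen after seeing the data). Ratios of 72 h against sham were not among the 70. For C1qc in KO monocyte/macrophage cells that ratio was 0.055 relative to the median gene, opposite in sign to the reported -0.08. The causes were not tested.

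C1qa in monocyte/macrophage cells kept its sign in every alternative run on its ratios among the 70. At 24 h against sham, WT gave -0.94 at resolution 0.5, -0.87 at resolution 2, -0.99 without doublet removal, -0.94 without the MHC class II cluster, -0.85 without mitochondrial, ribosomal and hemoglobin genes, -1.06 as a mean over cells and -0.68 relative to the median gene. KO gave -0.99, -0.97, -1.10 and -1.01 for the first 4 of these, -1.25 as a mean over cells and -0.67 against the median gene. Between 24 h and 72 h, WT gave 1.5 at resolution 0.5, 1.53 without doublet removal, 1.49 without that cluster, 1.14 as a mean over cells and 1.37 relative to the median gene, and KO gave 0.99, 1.09, 1.04, 0.87 and 0.82, and 1.0 at resolution 2. KO against WT at sham was 0.13 and 0.19 at resolutions 0.5 and 2, 0.20 without doublet removal, 0.16 without the cluster and 0.20 without mitochondrial, ribosomal and hemoglobin genes. At 24 h it was 0.054 as a mean over cells and 0.23 relative to the median gene. At 72 h it was -0.43 at resolution 0.5, -0.34 without those genes and -0.22 as a mean over cells.

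C3 in fibroblasts of KO at 24 h against sham was -0.65 without mitochondrial, ribosomal and hemoglobin genes, -0.40 as a mean over cells and -0.55 against the median gene. Between 24 h and 72 h, C3 in WT was -0.54 as a mean over cells and -1.27 relative to the median gene. In KO it was -0.67 at resolution 0.5, -0.79 with cells of at least 2000 UMIs and -2.38 as a mean over cells. KO against WT as a mean over cells was -0.37 at sham, -0.016 at 24 h and -1.86 at 72 h, the last opposite in sign to the reported 0.08, whose interval included 0 (-0.08 to 0.24). It was -0.14 at 24 h relative to the median gene, and at 72 h 0.61 at resolution 0.5 and 0.49 with cells of at least 2000 UMIs. The share of all genes at least 2-fold apart in either direction, 1.55% to 39.0% over 21 comparisons of a class, was 6.95% to 60.5% at 1.5-fold and 3.73% to 43.6% with at least 20 UMIs. Dropping the minimum on UMIs enters no ratio and gave no other value. Depth limits KO ligation 72 h most, with a median of 1351 UMIs per cell.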

Other observations

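Other complement genes had classes of their own. Pericytes had the highest Colec11, a collectin that can start the lectin pathway. It was at 1964 CPM in WT sham and 925 in WT ligation 24 h. In KO it was at 1312 at sham, 1096 at ligation 24 h and 185 at 72 h. Pericytes of KO ligation 72 h had a median of 943 UMIs, and 158 of the 369 held a C1qa UMI. The part of depth and of macrophage RNA in the value of 185 was not tested. Vtn, which keeps the terminal complex off membranes, was also highest in pericytes. Cfp, or properdin, which stabilises the alternative pathway's convertase, was between 259.9 and 330.05 CPM in monocyte/macrophage cells of all 6 libraries.

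The integrin chains of the complement receptors went different ways in neutrophils. Itgam, a chain of complement receptor 3, was at 641 and 745 CPM in sham neutrophils, 1122 and 949 at 24 h, and 373 and 386 at 72 h, WT first. Itgax, a chain of complement receptor 4, was at 80.6 and 66.0 at sham, 35.6 and 24.1 at 24 h, and 168 and 124 at 72 h.

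Membrane regulators in fibroblasts also differed. Cd55, which speeds the decay of C3 convertases, was at 167 CPM (WT) and 61.4 (KO) after 24 h of ligation, a log2 ratio of -1.45 (-1.72 to -1.18), after 141 and 137 at sham. C7, a part of the membrane attack complex, was at 77.5 and 60.5 CPM in sham fibroblasts and 43.2 and 26.4 at ligation 24 h. In mesothelial cells of KO ligation 72 h Cfb was at 584 CPM and C1ra at 198.

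Unnamed cluster 28 held C4b at 347 CPM in WT sham, 249.1 in KO sham and 217 in KO ligation 24 h.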
